A study of Mus musculus with 12 samples.

Results

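The mitochondrial ribosomal protein genes were taken as all genes whose symbol starts with Mrpl or Mrps followed by a number, read from array probe sets annotated to a single symbol. There were 156 such probe sets for 76 genes, of 18193 genes with a single-symbol probe set. Of the 76 genes, 47 carried a large subunit symbol (Mrpl) and 29 a small subunit symbol (Mrps). Each gene was read by its brightest probe set. All 76 lay above the signal filter that left 11345 genes for testing. Mrpl30 and Mrpl53, the other mouse protein-coding genes of these symbol series in RefSeq, were read only by probe sets shared with a second symbol and were not included.

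Muscle RNA was measured in 12 mice of 16 weeks, 3 in each of 4 groups, with 1 array per mouse. The groups were GPR120 KO on high fat diet (KO HFD), GPR120 KO on normal diet (KO ND), wild type on high fat diet (WT HFD) and wild type on normal diet (WT ND). All mice were of a mixed 129/Sv and C57BL/6 background. GPR120, encoded by Ffar4, is a receptor for long-chain fatty acids, and the comparisons ask how muscle RNA differed between the diets in each genotype and between the genotypes on each diet. The labels do not give sex, muscle site, time on the diet or the KO allele. The mouse numbers of the groups run in separate ranges, so cohort or litter cannot be told apart from group. The tissue was whole muscle, in which fewer cells of a type and less RNA per cell cannot be told apart.

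The mitochondrial ribosome translates the few proteins that mitochondrial DNA encodes, all of them subunits of the respiratory chain and ATP synthase. Its ribosomal RNAs are mitochondrial transcripts, while its proteins are encoded in the nucleus, made by cytosolic ribosomes and imported. The small subunit binds the messenger RNA and reads its codons, and the large subunit joins amino acids and is anchored near the inner membrane. Skeletal muscle is rich in mitochondria, and its nuclear genes for mitochondrial proteins are known to respond together to the coactivators Ppargc1a and Ppargc1b.

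The labelled tissue and the arrays were checked first. All 9 skeletal muscle fibre markers lay above the filter, with mean log2 signals between 12.59 for Casq1, a calcium buffer of the sarcoplasmic reticulum, and 13.97 for Tnnt3, the fast fibre troponin T. Ffar4 could not check the genotype, since its only probe set averaged 1.61, below the filter of 3.78. It read 3.19, 2.76 and 0.98 in KO HFD, 3.22, 3.88 and 0.33 in KO ND, 1.28, 2.40 and 0.56 in WT HFD and -0.19, 2.26 and -1.39 in WT ND. Array medians lay between 3.87 and 4.17. The 3′ over 5′ log2 ratio of the beta-actin and Gapdh controls, a sign of RNA quality, was 0.018 to 0.281 in KO HFD, 0.008 to 0.121 in KO ND, 0.162 to 0.201 in WT HFD and -0.082 to 0.088 in WT ND.

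The genes were readily measured. Their mean log2 signals ran between 7.03 for Mrps27 and 12.04, with a median of 9.16, beside 6.84 for all genes tested. Signals of different probe sets do not order the genes by abundance. The spread between mice of a group was small, with a median pooled SD of 0.127, beside 0.241 for all genes tested. The 76 genes were also brighter, and no spread or share over all genes given here was matched for brightness. For each array, the deviation of every gene from its own mean over the 12 arrays was averaged over the 76 genes. This averaged deviation was -0.075, -0.028 and 0.063 in KO HFD, -0.075, 0.034 and 0.009 in KO ND, 0.076, 0.076 and 0.105 in WT HFD, and 0.009, -0.103 and -0.091 in WT ND. The 3 WT HFD arrays were above all 9 others, and the 2 lowest were WT ND arrays, while the third WT ND array lay among the KO arrays.

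**Figure D1:**
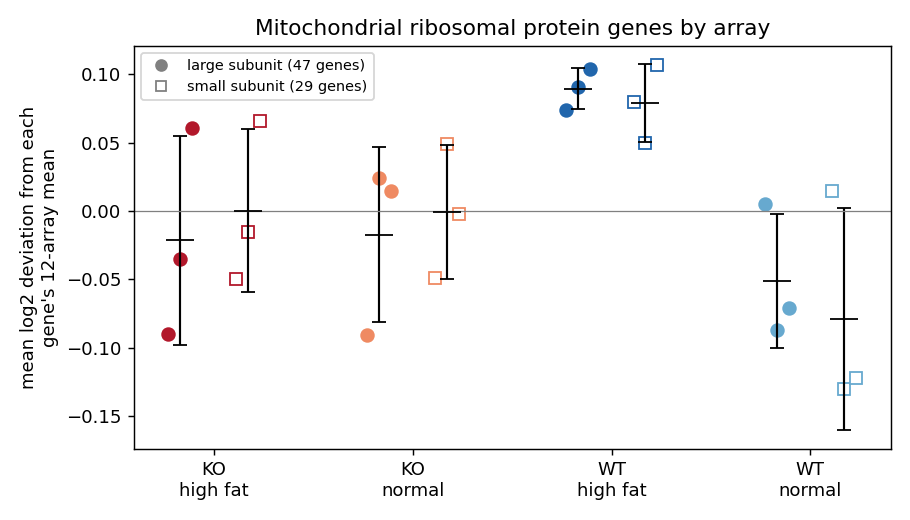
Mean log2 deviation of the 47 large subunit genes (filled circles) and the 29 small subunit genes (open squares) from each gene's own mean over the 12 arrays, with 1 point per mouse. Horizontal lines are group means and bars are ± SD (n = 3); for both subunits the WT high fat diet mean was the highest of the 4 groups and the WT normal diet mean the lowest.

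In both subunits the group mean was highest in WT HFD and lowest in WT ND. Of the large subunit averages, the 3 WT HFD arrays were above all 9 others, while of the small subunit averages KO HFD mouse 3 (0.066) lay above WT HFD mouse 2 (0.050). The large subunit genes averaged -0.022 ± 0.076 in KO HFD, -0.017 ± 0.064 in KO ND, 0.090 ± 0.015 in WT HFD and -0.051 ± 0.049 in WT ND (SD, n = 3). The small subunit genes averaged 0.000 ± 0.060 in KO HFD, 0.000 ± 0.049 in KO ND, 0.079 ± 0.028 in WT HFD and -0.079 ± 0.081 in WT ND (SD, n = 3). The 2 KO groups lay between the 2 WT groups and overlapped each other. Gene by gene, the highest of the 4 group means was in KO HFD for 11 genes, in KO ND for 12, in WT HFD for 47 and in WT ND for 6. Over all genes tested these shares were 33.8% in KO HFD, 18.8% in KO ND, 26.3% in WT HFD and 21.1% in WT ND. The lowest group mean was in KO HFD for 20 of the 76 genes, in KO ND for 18, in WT HFD for 3 and in WT ND for 35. The shares of the lowest mean over all genes tested were not computed, so nothing was read from these counts.

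The large and the small subunit were then set against each other. The large subunit average minus the small subunit average was -0.022 ± 0.017 in KO HFD, -0.017 ± 0.030 in KO ND, 0.010 ± 0.026 in WT HFD and 0.028 ± 0.033 in WT ND (SD, n = 3). The pooled SD between mice of a group was 0.027. The mean change of the large subunit genes less that of the small subunit genes was -0.005 for high fat against normal diet in KO, -0.018 for high fat against normal diet in WT, -0.032 for KO against WT on high fat diet and -0.045 for KO against WT on normal diet. The diet values were smaller than this SD and the genotype values larger. With the mean of all probe sets of a gene in place of the brightest, they were 0.029 for the diet in KO, -0.145 for the diet in WT, 0.102 for genotype on the high fat diet and -0.072 for genotype on the normal diet. The balance of the subunits thus depended on how probe sets were used. That mean takes in probe sets below the filter, such as those of Mrps10 and Mrpl41 with mean log2 signals of 2.29 and -0.33. Their part in the change was not tested. Of the small subunit symbols, 3 name proteins placed elsewhere by structure, since Mrps18a and Mrps30 belong to the large subunit and Mrps36 to the oxoglutarate dehydrogenase complex.

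In WT muscle, 5 mitochondrial ribosomal protein genes rose on the high fat diet and 0 fell, in limma with Benjamini-Hochberg adjustment over all genes tested and a threshold of 0.05. They were the small subunit genes Mrps15, Mrps10, Mrps16 and Mrps21 and the large subunit gene Mrpl23. These 5 are 6.58% of the 76 genes, and 6.06% of all genes tested were called in either direction, 3.07% higher and 2.99% lower. The share called was thus near the background, and is no result about the family. Most of the family was higher by a small amount: 64 of 76 genes, or 84.2%, had a difference above 0, beside 55.3% of all genes tested. The median log2 difference was 0.171, with quartiles of 0.053 and 0.242, beside 0.044 for all genes tested. The count of 5 was 1 without WT ND mouse 2 or 3 or WT HFD mouse 1 or 2, and 2 without WT HFD mouse 3 or KO ND mouse 3.

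The separation of the diet groups in WT gave the same picture. For 30 of the 76 genes, 39.5%, all 3 WT HFD values lay above all 3 WT ND values, beside 15.7% of all genes tested. These 30 were 20 large and 10 small subunit genes, with log2 differences of 0.13 to 0.93. For 3 genes, 3.95%, all WT HFD values lay below all WT ND values, beside 11.1% of all genes tested. At an unadjusted p under 0.05, 19 genes were higher and 1 was lower, beside 13.2% and 9.8% of all genes tested. The median difference was 0.171 for the large subunit genes and 0.170 for the small subunit genes. It lay between 0.143 and 0.191 for all 76 genes when each WT mouse was left out in turn.

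**Figure D2:**
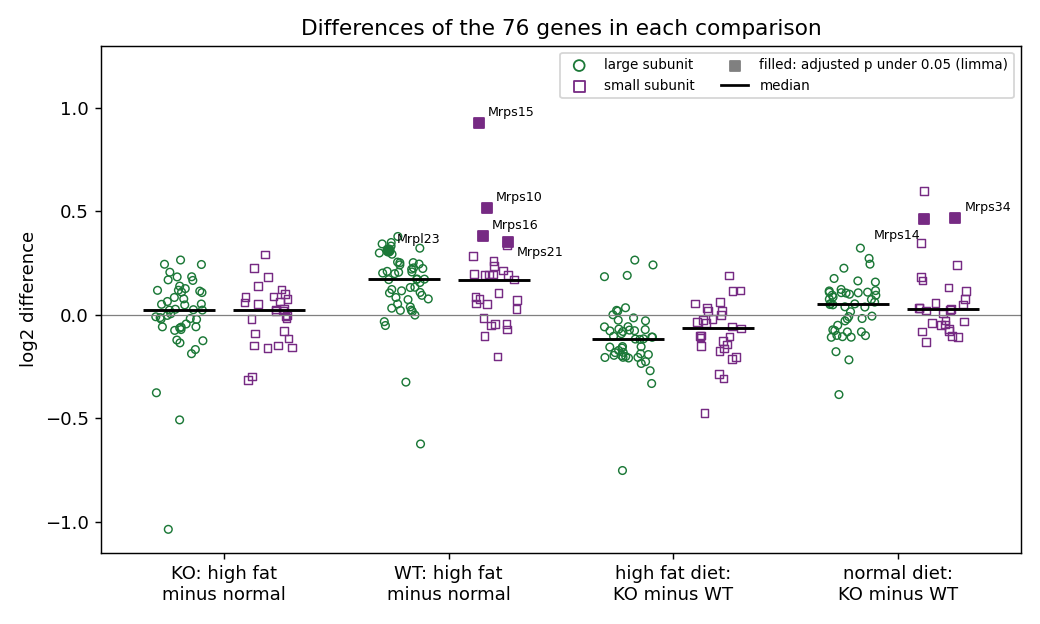
Log2 differences of the 76 genes in the 4 comparisons, with 1 point per gene, large subunit genes as circles and small subunit genes as squares. Filled and named points passed an adjusted p of 0.05 in limma, and horizontal lines are medians; the medians in WT were 0.171 for the large and 0.170 for the small subunit.

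Mrps15 had the widest diet difference of the 76 genes in WT. It encodes a small subunit protein with a bacterial counterpart that binds ribosomal RNA early in assembly. Its log2 signal was 10.28, 10.70 and 10.51 in KO HFD, 10.45, 10.65 and 10.32 in KO ND, 10.75, 10.73 and 10.94 in WT HFD, and 10.15, 9.74 and 9.74 in WT ND. The WT ND mice were all below the 9 others, and the WT HFD mice all above. The diet difference was 0.02 in KO (limma adjusted p = 0.953), and in WT it rose on the high fat diet by 0.93 ± 0.14 (SE, n = 3 per group), 1.9-fold (adjusted p = 0.00238). The call in WT was kept with any 1 mouse left out. A second probe set of similar brightness read 10.21 in WT HFD and 9.99 in WT ND as group means, a log2 difference of 0.22 (adjusted p = 0.165 in the fit of all probe sets). The size for Mrps15 therefore depended on the probe set.

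Mrps10 encodes a small subunit protein whose bacterial counterpart sits in the head of that subunit. It read 9.36, 9.37 and 9.44 in KO HFD, 9.19, 9.22 and 9.40 in KO ND, 10.01, 9.93 and 9.66 in WT HFD, and 9.54, 9.22 and 9.29 in WT ND. The 3 WT HFD mice were above all 9 others. The diet difference was 0.12 in KO (limma adjusted p = 0.602), and in WT it rose by 0.51 ± 0.11 (SE, n = 3 per group), 1.43-fold (adjusted p = 0.0205). The call in WT was lost without WT ND mouse 2 or 3 or WT HFD mouse 1 or 2.

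Mrps16 encodes a small subunit protein that has been linked in humans to a respiratory chain disorder. It read 10.10, 10.18 and 10.34 in KO HFD, 9.92, 9.99 and 10.04 in KO ND, 10.51, 10.38 and 10.33 in WT HFD, and 10.18, 9.91 and 10.00 in WT ND. In both genotypes the high fat diet values lay above the normal diet values. The diet difference was 0.23 in KO (limma adjusted p = 0.210), and in WT it rose by 0.38 ± 0.10 (adjusted p = 0.0362). The WT call was lost without any 1 of the WT mice other than WT ND mouse 1, or without KO ND mouse 3.

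Mrps21 encodes a small subunit protein with a bacterial counterpart. It read 10.50, 10.56 and 10.61 in KO HFD, 10.36, 10.51 and 10.58 in KO ND, 10.55, 10.62 and 10.60 in WT HFD, and 10.35, 10.05 and 10.31 in WT ND. The WT ND mice were the low group, and the other 3 groups overlapped. The diet difference was 0.08 in KO (limma adjusted p = 0.713), and in WT it rose by 0.35 ± 0.09 (adjusted p = 0.0419).

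Mrpl23 encodes a large subunit protein whose bacterial counterpart lies at the exit of the peptide tunnel. It read 10.44, 10.64 and 10.64 in KO HFD, 10.61, 10.78 and 10.70 in KO ND, 10.79, 10.88 and 10.87 in WT HFD, and 10.57, 10.51 and 10.52 in WT ND. The WT HFD values were above all others, and the WT ND values were below those of KO ND. The diet difference was -0.12 in KO (limma adjusted p = 0.438), and in WT it rose by 0.31 ± 0.08, 1.24-fold (adjusted p = 0.0395). The WT calls of Mrps21 and Mrpl23 were both lost without any 1 of the WT mice other than WT ND mouse 1. Both were also lost without KO ND mouse 3 or KO HFD mouse 3, and that of Mrps21 without KO ND mouse 2 or KO HFD mouse 2 as well.

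**Figure D3:**
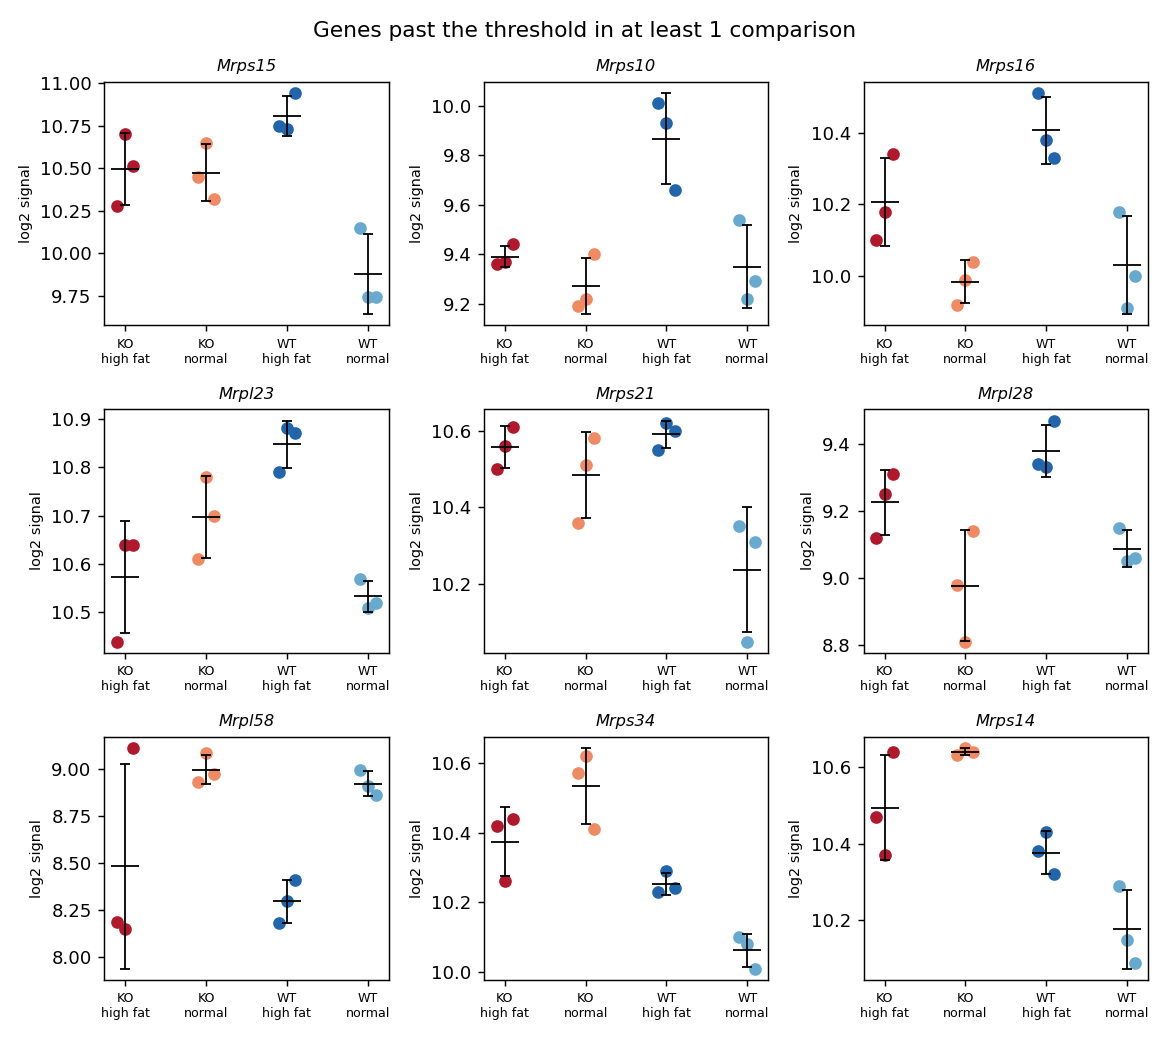
Log2 signal of the 9 genes past the threshold in at least 1 comparison, with 1 point per mouse, group means as horizontal lines and bars of ± SD (n = 3). The vertical axes differ between panels; in the Mrps15 panel the WT normal diet mice, at 9.74 to 10.15, lie below all others.

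At the other end in WT stood Mrpl58, also known as Ict1, which frees peptides from stalled mitochondrial ribosomes and is built into the large subunit. It read 8.19, 8.15 and 9.11 in KO HFD, 8.93, 9.08 and 8.97 in KO ND, 8.18, 8.30 and 8.41 in WT HFD, and 8.99, 8.91 and 8.86 in WT ND. The high fat diet values were below the normal diet values in WT and in 2 of the 3 KO mice, and KO HFD mouse 3 was above all 11 others. The log2 difference was -0.51 in KO (limma adjusted p = 0.164) and -0.62 ± 0.20 in WT (adjusted p = 0.0774). Averaged over genotypes, Mrpl58 fell on the high fat diet by 0.57 (SE 0.14, adjusted p = 0.0170), and this call was kept with any 1 mouse left out. It was lost with the 3′ over 5′ ratio as covariate. It was also lost with the mean of all probe sets, which adds a probe set below the filter.

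Of the other genes at the ends of the range in WT, Mrpl34, a large subunit gene, had a difference of 0.38 (adjusted p = 0.0956), and Mrps18b, the lowest of the small subunit symbols, -0.20 (adjusted p = 0.321). Mrpl41 joined Mrpl58 and Mrps18b as the genes with all WT HFD values below all WT ND values. It was chosen here after its values were seen, and had a difference of -0.33 (adjusted p = 0.225).

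The promoters of 3 of these genes show the sequence around the letters searched, and they were chosen as the gene with the widest rise, a gene that rose and holds an NRF1 match, and the gene that fell. Each window is the 250 bases before the annotated start, 5′ to 3′ along the gene's strand, from RefSeq on GRCm38.p6. Capitals mark a match to NRF1 or to the ETS element of GABP (CCGGAAG), read on both strands; the NRF1 search allowed any base at the middle of its core. NRF1 and GABP are transcription factors known to act on nuclear genes for mitochondrial proteins. Mrps15 lies at chr4:126046678-126046927 on the plus strand, Mrps21 at chr3:95871515-95871764 on the minus strand and Mrpl58 at chr11:115403502-115403751 on the plus strand.
Mrps15: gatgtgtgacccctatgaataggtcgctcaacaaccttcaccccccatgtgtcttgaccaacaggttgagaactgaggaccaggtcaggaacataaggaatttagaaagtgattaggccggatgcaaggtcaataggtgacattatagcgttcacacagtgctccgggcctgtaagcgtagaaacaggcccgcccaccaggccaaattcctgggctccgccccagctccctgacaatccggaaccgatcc
Mrps21: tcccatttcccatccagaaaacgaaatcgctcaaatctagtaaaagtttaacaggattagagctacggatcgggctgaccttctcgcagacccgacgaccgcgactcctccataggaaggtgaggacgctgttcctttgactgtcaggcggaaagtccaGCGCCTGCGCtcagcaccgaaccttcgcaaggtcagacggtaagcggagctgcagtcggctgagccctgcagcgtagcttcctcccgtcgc
Mrpl58: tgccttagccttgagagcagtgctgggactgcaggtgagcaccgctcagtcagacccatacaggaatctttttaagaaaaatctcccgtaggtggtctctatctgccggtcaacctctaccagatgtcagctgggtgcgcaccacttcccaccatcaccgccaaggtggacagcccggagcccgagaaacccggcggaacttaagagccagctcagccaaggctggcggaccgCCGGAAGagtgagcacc

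The Mrps15 window held no match to these letters. The match in Mrps21 ended 81 bases before the start, and that in Mrpl58 ended 10 bases before it. Windows were found for 67 of the 76 genes, 73 windows in all, and for 8 of the 9 genes called in any comparison. The NRF1 letters stood in 12.3% of the 73 windows, against 3.74% of the 32841 windows of all genes, and the ETS letters in 23.3%, against 6.91%. The letters for a further factor, YY1, stood in 1.37%, against 0.642%. The windows of these genes were richer in G and C, with a median of 58.4% against 52.4%, and both main motifs are made up largely of these bases. No overlap between motifs was removed. By subunit, the NRF1 letters stood in 8 of 46 large subunit windows and in 1 of 27 small subunit windows, that of Mrps21. These matches are a description of the letters only.

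In KO muscle, 0 of the 76 genes passed the threshold on the high fat diet in limma, beside 4.54% of all genes tested, 2.66% higher and 1.88% lower. Without KO HFD mouse 3, Mrpl58 fell in KO, and without WT ND mouse 2 or WT HFD mouse 2, Mrpl33 fell. At an unadjusted p under 0.05, 4 were higher and 5 lower, beside 12.1% and 7.85% of all genes tested. The median log2 difference was 0.023, beside 0.055 for all genes tested, and 42 genes, or 55.3%, were above 0, beside 57.5%. The sign of this median was not stable: it was 0.062 without KO HFD mouse 1, 0.005 without KO HFD mouse 2, -0.024 without KO HFD mouse 3 and -0.007 without KO ND mouse 1. All KO HFD values lay above all KO ND values for 5 genes and below them for 5 genes, 6.58% each, beside 16.3% and 10.2% of all genes tested. The large subunit median was 0.023 and the small subunit median 0.021.

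The 5 genes with all KO HFD values above all KO ND values were Mrps6, Mrps16, Mrpl13, Mrps36 and Mrpl39, at 0.17 to 0.29. The 5 with all values below were Mrpl33, Mrps35, Mrpl32, Mrps22 and Mrpl2, at -1.04 to -0.07. Apart from Mrps6, Mrps16, Mrps36 and Mrpl33, these were named after their values were seen. Mrpl33, a large subunit gene with a bacterial counterpart, had the lowest difference in KO. It read 9.21, 9.93 and 9.78 in KO HFD, 10.35, 10.90 and 10.79 in KO ND, 10.18, 10.91 and 10.08 in WT HFD, and 10.71, 9.61 and 10.75 in WT ND. The KO HFD mice lay below the KO ND mice, and the WT mice scattered over both ranges. The difference in KO was -1.04 ± 0.30 (SE, n = 3 per group, limma adjusted p = 0.0669). No second probe set of Mrpl33 lay above the filter.

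The other ends of the range in KO were 0.26 for the large subunit gene Mrpl48 (limma adjusted p = 0.236), 0.29 for the small subunit gene Mrps6 (adjusted p = 0.191) and -0.31 for Mrps18b (adjusted p = 0.147). Mrps18b read 8.87, 8.60 and 8.98 in KO HFD, 8.96, 9.23 and 9.20 in KO ND, 8.72, 8.78 and 8.89 in WT HFD, and 9.01, 8.96 and 9.03 in WT ND. Its high fat diet values were the lower ones in both genotypes, with an overlap between 8.96 and 8.98 in KO. Averaged over genotypes its difference was -0.26 (adjusted p = 0.053).

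Whether the diet effect differed by genotype was tested by the interaction, the diet effect in KO minus that in WT. In limma 0 of the 76 genes passed, beside 0.141% of all genes tested. With no adjustment and p under 0.05, 0 were above 0 and 8 below, beside 5.52% and 4.87% of all genes, 10.4% together. The median interaction was -0.140, beside 0.011 for all genes, and 17 genes were above 0, beside 51.3% of all genes. Mrps15 came closest, at -0.91 ± 0.19 (limma adjusted p = 0.100), and passed without WT ND mouse 1. Its second probe set of similar brightness stood at -0.345 (adjusted p = 0.392 in the limma fit of all probe sets). Mrpl23 stood at -0.43 (adjusted p = 0.212). The diet effect of any single gene was therefore not shown to differ between the genotypes.

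On the normal diet, the small subunit genes Mrps34 and Mrps14 rose in KO against WT, and 0 of the 76 genes fell. The 2 genes are 2.63% of the 76, beside 0.414% of all genes tested in limma, 0.291% higher and 0.123% lower. At an unadjusted p under 0.05, 5 were higher and 1 lower, beside 6.13% and 5.13% of all genes. The median log2 difference was 0.043, beside 0.017 for all genes, and 47 genes, or 61.8%, were above 0, beside 53.3%. It was 0.065, 0.020 and 0.028 without KO ND mouse 1, 2 or 3, and 0.078, 0.015 and 0.021 without WT ND mouse 1, 2 or 3. Without KO ND mouse 2 or 3 it exceeded the median of all genes by only 0.003 and 0.002. All KO ND values lay above all WT ND values for 10 genes, 13.2%, and below for 1 gene, 1.32%, beside 9.25% and 7.72% of all genes. The gene below was Mrpl9 (-0.22), named after its values were seen.

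Mrps34 encodes a small subunit protein with no bacterial counterpart, which is needed for a stable small subunit in the mouse. It read 10.42, 10.26 and 10.44 in KO HFD, 10.57, 10.62 and 10.41 in KO ND, 10.23, 10.29 and 10.24 in WT HFD, and 10.10, 10.08 and 10.01 in WT ND. The WT ND mice were the low group, and on the high fat diet the genotypes overlapped. The genotype difference was 0.12 on the high fat diet (limma adjusted p = 0.558) and 0.47 ± 0.08 on the normal diet (SE, n = 3 per group, 1.38-fold, adjusted p = 0.0334). Averaged over diets it rose in KO by 0.29 ± 0.06 (adjusted p = 0.0268). A dimmer probe set shared by Nme3 and Mrps34 went the other way, with group means of 6.63 in KO HFD, 6.35 in KO ND, 7.13 in WT HFD and 6.92 in WT ND, and a difference of -0.57 on the normal diet (adjusted p = 0.223 in the fit of all probe sets).

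Mrps14 encodes a small subunit protein whose bacterial counterpart also lies in the head of that subunit. It read 10.47, 10.37 and 10.64 in KO HFD, 10.63, 10.65 and 10.64 in KO ND, 10.38, 10.43 and 10.32 in WT HFD, and 10.29, 10.15 and 10.09 in WT ND. The 3 KO ND mice were nearly equal, and the WT ND mice were below all others. The genotype difference was 0.12 on the high fat diet (limma adjusted p = 0.579) and 0.46 ± 0.09 on the normal diet (1.38-fold, adjusted p = 0.0394). Averaged over diets it rose in KO by 0.29 ± 0.06 (adjusted p = 0.0340). A dimmer probe set of Mrps14 had genotype differences of -0.08 on the high fat diet (adjusted p = 0.901), 0.22 on the normal diet (adjusted p = 0.743) and 0.07 averaged over diets (adjusted p = 0.854) in the fit of all probe sets, so the size for Mrps14 depended on the probe set. On the normal diet the calls of Mrps34 and Mrps14 were both lost without WT ND mouse 2 or 3 or any 1 KO ND mouse, and that of Mrps14 also without WT HFD mouse 3.

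At the ends of the range on the normal diet, Mrps15 had a KO minus WT difference of 0.60 ± 0.14 (SE, n = 3 per group, limma adjusted p = 0.0841), with all KO ND values above all WT ND values. Its second probe set of similar brightness had a difference of 0.19 (adjusted p = 0.443 in the limma fit of all probe sets). The other genes at the ends were Mrpl33 at 0.32 (adjusted p = 0.755), Mrpl41 at -0.39 (adjusted p = 0.352) and Mrps36 at -0.13 (adjusted p = 0.798). Mrpl41, a large subunit gene, read 9.40, 9.35 and 9.47 in KO HFD, 9.20, 9.79 and 9.65 in KO ND, 9.52, 9.61 and 9.68 in WT HFD, and 9.70, 10.24 and 9.84 in WT ND. The WT ND mice held the highest values and overlapped with KO ND. The WT ND arrays serve both as the normal diet group of the WT diet comparison and as the WT group here.

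On the high fat diet, 0 of the 76 genes passed between KO and WT in limma, beside 0.732% of all genes tested. At an unadjusted p under 0.05, 1 was higher and 9 were lower, beside 9.06% and 5.76% of all genes. Most of the family was lower in KO: 16 genes were above 0, 21.1%, beside 53.9% of all genes, and the median was -0.105, with quartiles of -0.184 and -0.024, beside 0.027 for all genes. For 15 genes, 19.7%, all KO HFD values lay below all WT HFD values, and for 1 gene, 1.32%, above, beside 8.39% and 11% of all genes. The gene above was Mrpl45 (0.24, named after its value was seen), which helps to anchor the ribosome at the inner membrane. The 15 were 10 large and 5 small subunit genes, at -0.75 to -0.15. The large subunit median was -0.116 and the small subunit median -0.066.

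At the ends of the range on the high fat diet stood Mrps10 at -0.47 ± 0.11 (SE, n = 3 per group, limma adjusted p = 0.0685), Mrpl33 at -0.75 ± 0.30 (adjusted p = 0.261), Mrpl50 at 0.26 (adjusted p = 0.501) and Mrps6 at 0.19 (adjusted p = 0.488). Mrpl50, a large subunit gene, read 7.99, 7.84 and 7.81 in KO HFD, 7.90, 7.80 and 7.59 in KO ND, 7.20, 7.92 and 7.72 in WT HFD, and 7.48, 7.74 and 7.78 in WT ND. WT HFD mouse 1 was the lowest of the 12, and the groups overlapped. Without KO HFD mouse 3 the median of the 76 genes was -0.142, the lowest with any 1 mouse left out, and the highest was -0.078. This comparison shares the WT HFD arrays with the WT diet comparison.

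Averaged over both genotypes, 5 of the 76 genes rose on the high fat diet and 1 fell, 7.89% together, beside 13.7% of all genes tested in limma, 7.49% higher and 6.19% lower. Those that rose were Mrps15 (0.47 ± 0.10, adjusted p = 0.00659), Mrps16 (0.30 ± 0.07, adjusted p = 0.0116), Mrps10 (0.32 ± 0.08, adjusted p = 0.0208), Mrpl28 (0.27 ± 0.07, adjusted p = 0.0277) and Mrps21 (0.21 ± 0.07, adjusted p = 0.0486), and Mrpl58 fell. The median was 0.094, beside 0.058 for all genes, and 62 genes were above 0, beside 59.1%. For 1 gene, Mrpl39, named after its values were seen, all 6 high fat diet values lay above all 6 normal diet values, beside 2.58% of all genes, and for 0 below, beside 2.34%. The calls of Mrps15, Mrps16 and Mrpl58 were kept with any 1 mouse left out, and those of Mrps10, Mrpl28 and Mrps21 were kept in 8, 5 and 2 of the 12 such fits. The call of Mrps15 was not shared by its second probe set of similar brightness. That probe set had an averaged diet difference of 0.04 (adjusted p = 0.707 in the limma fit of all probe sets). In other settings, those of Mrps15 and Mrpl58 were lost with the mean of all probe sets. That of Mrpl58 was also lost with the 3′ over 5′ ratio as covariate, and that of Mrps16 with median centring.

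Mrpl28, a large subunit gene with a bacterial counterpart, read 9.12, 9.25 and 9.31 in KO HFD, 8.98, 8.81 and 9.14 in KO ND, 9.34, 9.33 and 9.47 in WT HFD, and 9.15, 9.05 and 9.06 in WT ND. The diets did not overlap in WT and overlapped in KO by KO HFD mouse 1 and KO ND mouse 3. Its 3 probe sets above the filter did not go the same way. In the fit of all probe sets, the averaged diet difference was 0.27 for the brightest (limma adjusted p = 0.0328), 0.35 for a second (adjusted p = 0.00662) and -0.23 for the third (adjusted p = 0.458). Mrpl28 was the only one of the 33 genes with more than 1 probe set above the filter in which a call and a contrary sign met. Without regard to calls, signs differed more often. Of the 54 other probe sets above the filter in these 33 genes, the sign of the brightest was shared by 33 for the diet in KO. It was shared by 39 for the diet in WT, 36 for genotype on the high fat diet and 29 on the normal diet. The family's medians and counts above 0 rest on the brightest probe set.

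Averaged over both diets, Mrps34 and Mrps14 rose in KO and 0 of the 76 genes fell, beside 0.899% and 0.714% of all genes tested in limma, 1.61% together. Without adjustment 3 were higher and 5 lower at p under 0.05, beside 9.33% and 5.98% of all genes. The median was -0.037, beside 0.020 for all genes, and 27 genes were above 0, beside 54.3%. It lay between -0.053 without KO HFD mouse 3 and -0.009 without WT ND mouse 1, and was -0.014, -0.019, -0.020, -0.024 and -0.024 without KO HFD mouse 1, KO HFD mouse 2, KO ND mouse 1, WT HFD mouse 1 and WT HFD mouse 3. For Mrpl45 alone all 6 KO values lay above all 6 WT values, beside 0.529% of all genes, and for 0 genes below, beside 0.494%. Both calls were lost without WT ND mouse 2 or 3, WT HFD mouse 1 or 3, KO ND mouse 1 or 2, or KO HFD mouse 1 or 3, and that of Mrps14 also without KO ND mouse 3.

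The genes were set beside other parts of the same machinery and beside 2 larger families. Nuclear subunits of oxidative phosphorylation, the complexes that the mitochondrial ribosome helps to build, gave 17 of 78 genes that rose, 21.8%, and 0 that fell in WT on the high fat diet, beside 3.07% and 2.99% of all genes tested, with a median of 0.233. Those with the smallest adjusted p were all subunits of complex I, Ndufv3 (0.34, limma adjusted p = 0.0159), Ndufb7 (0.41), Ndufb3 (0.38) and Ndufa13 (0.46). The family's other medians were 0.062 for the diet in KO, -0.101 for genotype on the high fat diet and 0.059 for genotype on the normal diet. In limma 0 of 78 were called in each of these. At an unadjusted p under 0.05, 4 of the 78 were higher and 0 lower for the diet in KO. These counts were 1 higher and 18 lower for genotype on the high fat diet, and 5 and 2 on the normal diet. Of all genes tested, 12.1% were higher and 7.85% lower at that p for the diet in KO, 9.06% and 5.76% for genotype on the high fat diet, and 6.13% and 5.13% on the normal diet. Cytosolic ribosomal protein genes had 0 of 46 called for the diet in WT. At an unadjusted p under 0.05, 11 of the 46 were higher and 1 lower, beside 13.2% and 9.8% of all genes tested. The median of these 46 genes was 0.121. Their other medians were 0.008 for the diet in KO, where Rpl12 fell by 1.07 (adjusted p = 0.0119), -0.080 for genotype on the high fat diet and 0.023 on the normal diet. In each of the 3 families the diet in WT had the highest of these medians and genotype on the high fat diet the lowest. For the diet in WT, 82.6% of the cytosolic ribosomal protein genes and 94.9% of the oxidative phosphorylation subunits were above 0, beside 84.2% of the 76 genes. All WT HFD values lay above all WT ND values for 41.3% and 82.1% of these families, beside 39.5% of the 76 genes. For genotype on the high fat diet, 21.7% and 8.97% were above 0, beside 21.1%. These shifts were thus not particular to the 76 genes. No test of a difference between families was made.

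**Figure D4:**
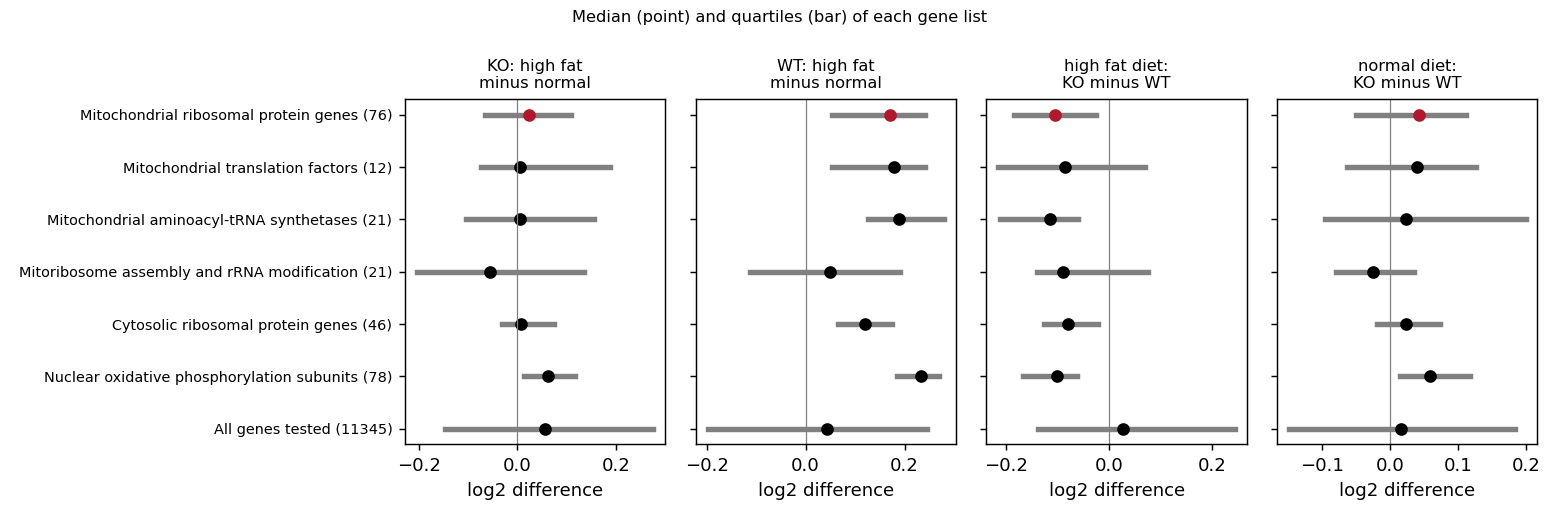
Median (point) and quartiles (bar) of the log2 difference in each gene list and over all genes tested, for the 4 comparisons, with the number of genes tested in brackets. The mitochondrial ribosomal protein genes, drawn in red, had medians of 0.023 for the diet in KO, 0.171 for the diet in WT, -0.105 for genotype on the high fat diet and 0.043 for genotype on the normal diet; the horizontal scales differ between panels.

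Of 7 names listed as ribosomal subunits under other symbols, 5 were on the array under that name. These 5 include Oxa1l, which is not itself a subunit. Another name, Ict1, is Mrpl58 and so already among the 76. Of the 5, 0 passed in the 4 single comparisons, with a median of 0.123 in WT. Of 15 mitochondrial translation factors 12 were tested and 0 passed, with medians of 0.005 for the diet in KO, 0.178 for the diet in WT, -0.084 for genotype on the high fat diet and 0.040 on the normal diet. At an unadjusted p under 0.05 there were 0, 3, 2 and 0 of the 12 factors in these comparisons. The 3 for the diet in WT were all higher, beside 13.2% of all genes tested. The 2 for genotype on the high fat diet were lower, beside 5.76%. With 12 genes, nothing was read from these counts. Of 21 mitochondrial aminoacyl-tRNA synthetases and related enzymes tested, Qrsl1, part of the enzyme that makes glutaminyl-tRNA, rose in WT on the high fat diet by 0.36 (limma adjusted p = 0.0381), and 19 were above 0 with a median of 0.188. Averaged over genotypes, the alanyl-tRNA synthetase Aars2 rose by 0.84 (adjusted p = 0.0490) and the seryl-tRNA synthetase Sars2 fell by 0.65 (adjusted p = 0.0296).

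Among 21 genes of ribosome assembly and ribosomal RNA modification tested, Tfb1m, which methylates the small subunit RNA, rose in KO on the high fat diet by 0.56 (limma adjusted p = 0.0484). Averaged over genotypes Tfb1m rose by 0.39 (adjusted p = 0.0247) and Mrm1, a methylase of the large subunit RNA, by 0.41 (adjusted p = 0.0478), while Mterf3 fell by 0.30 (adjusted p = 0.0402). The list's medians were near 0, at -0.056 for the diet in KO and 0.050 for the diet in WT. Of 15 regulators of mitochondrial transcription and biogenesis, the coactivators Ppargc1a (0.87, adjusted p = 0.0354) and Ppargc1b (0.83, adjusted p = 0.0411) rose in WT on the high fat diet. Ppargc1a had group means of 7.35 in KO HFD, 7.73 in KO ND, 8.09 in WT HFD and 7.23 in WT ND, highest in WT HFD and lowest in WT ND. Ppargc1b had means of 8.28 in KO HFD, 7.39 in KO ND, 7.61 in WT HFD and 6.79 in WT ND, and rose with the diet in KO too (0.90, adjusted p = 0.0374). The proto-oncogene Myc fell in KO on the high fat diet by 1.17 (adjusted p = 0.0335). Averaged over genotypes, Ppargc1b rose by 0.86 (adjusted p = 0.00341) and the transcription terminator family gene Mterf2 by 0.57 (adjusted p = 0.0492), while Myc fell by 0.97 (adjusted p = 0.00671) and the coactivator Pprc1 by 0.60 (adjusted p = 0.0115).

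Markers of mitochondrial amount and of cell types moved with some of these comparisons. The 9 skeletal muscle fibre markers all had a diet difference above 0 in both genotypes, with medians of 0.140 in KO and 0.162 in WT. In limma 0 of them passed in either genotype. At an unadjusted p under 0.05, 2 were higher in each, beside 12.1% of all genes tested in KO and 13.2% in WT. In WT 6 of the 9, 66.7%, had all high fat diet values above all normal diet values, beside 15.7% of all genes tested. Their genotype medians were -0.031 on the high fat diet and -0.013 on the normal diet. The summed linear signal of 4 mitochondrial genes (Cs, Vdac1, Tomm20 and Cycs) was 29225 to 30738 in KO HFD, 27835 to 29895 in KO ND, 30879 to 33040 in WT HFD and 27018 to 28026 in WT ND, again highest in WT HFD. That of 6 slow fibre genes was 18216 to 23782 in KO HFD, 17873 to 19766 in KO ND, 16480 to 18672 in WT HFD and 11573 to 14695 in WT ND, lowest in WT ND. In limma 3 of the 6, 50% (Myl3, Tnnc1 and Myl2), rose in WT on the high fat diet, beside 3.07% of all genes tested. Myl3 was also higher in KO than in WT on the normal diet (0.73, adjusted p = 0.0370). Of 6 adipocyte markers 4 were on the array, with sums of 4005 to 5972 in KO HFD, 651 to 3037 in KO ND, 1284 to 3914 in WT HFD and 1083 to 2613 in WT ND. All 5 macrophage markers summed to 2965 to 5356 in KO HFD, 1957 to 2627 in KO ND, 1500 to 3209 in WT HFD and 2610 to 3055 in WT ND. Of these, Adgre1 (1.11, limma adjusted p = 0.00197) and Lyz2 (1.07, adjusted p = 0.0351) rose in KO on the high fat diet. On that diet Cd68 was higher in KO than in WT (2.10, adjusted p = 0.0311). All 4 fibroblast markers summed to 9369 to 12426 in KO HFD, 7701 to 7999 in KO ND, 6082 to 8532 in WT HFD and 7415 to 7955 in WT ND. The fibroblast sums of KO HFD lay above those of the other 3 groups, while its macrophage sums overlapped those of WT. Of the fibroblast markers, the collagen genes Col3a1 and Col1a1 rose in KO on the high fat diet, by 1.24 (limma adjusted p = 0.0166) and 0.87 (adjusted p = 0.0423). The other markers, Dcn and Pdgfra, were highest in WT ND. Dcn averaged 12.25 in KO HFD, 12.32 in KO ND, 12.23 in WT HFD and 12.42 in WT ND. Pdgfra averaged 8.64, 8.43, 8.45 and 8.65 in the same order. Both Schwann cell markers on the array, of 4 named, summed to 830 to 1385 in KO HFD, 1167 to 1276 in KO ND, 643 to 836 in WT HFD and 728 to 1002 in WT ND, higher in KO than in WT on the normal diet. Of 4 endothelial markers, Kdr, a receptor for VEGF, rose in WT on the high fat diet by 1.24 (limma adjusted p = 0.0308), and of 2 satellite cell markers Pax7, a transcription factor of these muscle stem cells, rose by 2.02 (adjusted p = 0.0283). In log2 signal, Kdr averaged 6.80 in KO HFD, 6.32 in KO ND, 7.0 in WT HFD and 5.76 in WT ND. Pax7 averaged 4.77 in KO HFD, 4.75 in KO ND, 4.70 in WT HFD and 2.68 in WT ND. The endothelial markers did not all go the same way in WT, with 3 diet differences above 0 and 1 below. The 1 below was that of Pecam1, at -0.34, with means of 6.49 in WT HFD and 6.83 in WT ND. At an unadjusted p under 0.05 in limma, 2 of the 4 were higher and 1 was lower. The part of these markers, and of the 3′ over 5′ ratio, in the differences of the ribosomal protein genes was not tested gene by gene, except that the ratio was entered in the model as a covariate. With it 1 of the 5 WT diet calls was left, while the WT diet median of the 76 genes was 0.214, with 65 genes above 0, beside 0.171 and 64 without it.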

How the data were processed

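Biotin-labelled muscle RNA of 12 mice was read on 12 Affymetrix arrays. The authors deposited log2 signals of 45101 probe sets, and the submitters' processing notes name MAS5 without a version. The values were used as deposited. After 64 controls, 34945 probe sets had 1 symbol in the platform annotation, 932 several and 9160 none. Probe sets with a mean log2 signal above the median of 3.78 (13.8 linear) were kept, and the brightest stood for each gene, leaving 11345 genes. All 12 arrays entered 1 linear model in limma 3.58.1 (R 4.3.3; lmFit, eBayes with an intensity trend, 8 residual degrees of freedom), checked on simulated data, with Benjamini-Hochberg adjustment within each of 7 contrasts. P-values measure the spread between these mice.

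Named were all genes of the family past 0.05 in any contrast, the highest and lowest of each subunit in the 4 single comparisons, and genes whose probe sets disagree where called. Exceptions in the family are marked. Of other lists, called members were named in part of the comparisons only, up to 5 or the 4 with the smallest adjusted p. Unnamed calls in averaged effects include Ndufa12, Rps6, Lep, Pmp22 and Tek. Oxidative phosphorylation subunits called for the averaged diet effect (26.9% higher, beside 7.49% of all genes tested) were not listed either. The genes and lists were chosen with earlier results of these data known. Alternatives were other filters, an offset of 16, quantile normalization, median centring, other uses of probe sets, a fit of the compared groups alone, the 3′ over 5′ ratio as covariate, and leaving out each mouse. Promoters were RefSeq windows of 300 bases cut to the 250 before the start.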

Additional observations from a re-analysis of the deposited data

How the results depend on the processing

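The counts of called genes moved with the settings, and so did the smaller of the family's medians. For the diet in WT (5 called), 3 passed with no filter on dim genes, 3 with quantile normalization, 1 with median centring, 2 with the mean of all probe sets of a gene, 1 with the 3′ over 5′ ratio as covariate and 2 with only the groups compared (1 higher, 1 lower). For the diet in KO (0 called), 1 passed with median centring and 1 with only the groups compared, Mrpl33 in both. For genotype on the normal diet (2 called), 1 passed with no filter, and 0 with median centring, the mean of probe sets, the covariate or only the groups compared. For genotype on the high fat diet (0 called), 1 passed with median centring on the genes tested, a setting added after seeing the data, namely Mrps10 at -0.56. For the averaged diet effect (6 called), 2 passed with median centring, 1 with the mean of probe sets and 2 with the covariate. For the averaged genotype effect (2 called), 0 passed with either median centring and 1 each with the mean of probe sets and the covariate. With each mouse left out in turn, the counts were 0 to 1 for the diet in KO, 1 to 7 for the diet in WT, 0 to 0 for genotype on the high fat diet, 0 to 3 on the normal diet, 4 to 8 for the averaged diet effect, 0 to 2 for the averaged genotype effect and 0 to 1 for the interaction. The median of the 76 genes over all settings and left-out mice was -0.093 to 0.078 for the diet in KO, 0.136 to 0.214 for the diet in WT, -0.189 to -0.073 for genotype on the high fat diet, 0.015 to 0.078 on the normal diet, 0.019 to 0.127 for the averaged diet effect, -0.088 to -0.009 for the averaged genotype effect and -0.220 to -0.105 for the interaction, so only the diet effect in KO changed sign. Large minus small subunit changed with the mean of all probe sets, to 0.029 for the diet in KO, -0.145 for the diet in WT, 0.102 for genotype on the high fat diet, -0.072 on the normal diet, -0.058 for the averaged diet effect, 0.015 for the averaged genotype effect and 0.174 for the interaction. With each mouse left out it was -0.018 to 0.012 for the diet in KO, -0.037 to -0.006 for the diet in WT, -0.041 to -0.017 for genotype on the high fat diet, -0.064 to -0.032 on the normal diet, -0.021 to -0.003 for the averaged diet effect, -0.048 to -0.031 for the averaged genotype effect and 0.000 to 0.032 for the interaction. Counting Mrps18a and Mrps30 as large and leaving out Mrps36, also added after seeing the data, moved it by less than the SD between mice. The sign on the normal diet turned for Mrpl33, at -0.21 with the mean of probe sets and -0.05 without WT ND mouse 2 (-0.05 to 0.52 with each mouse left out), and Mrps36 came to 0.00 without WT ND mouse 1 (-0.30 to 0.00). The diet call of Mrps15 in WT was lost only with the mean of probe sets (0.43, limma adjusted p = 0.134), whose construction adds a dim probe set and one with a smaller difference. The cause of the other changes was not tested. Median centring on all probe sets moved the median of all genes for the diet in KO to -0.061, against 0.055 in the deposited scaling, and that of the 76 genes to -0.093. No paired analysis was possible because the labels give the groups no shared replicate numbers. The number of arrays limits the precision.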
